A study of Mus musculus with 17 samples.

Results

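Libraries Sham_KO_1 and Sham_KO_2 are 2 of the 17 RNA-seq libraries of a mouse study of chronic constriction injury (CCI) of a peripheral nerve, and both are labelled as sham-operated. Whether that label holds for these libraries cannot be settled from the files. They were chosen by a measured value, an Atf3 level above 50 CPM (read counts scaled to the library total), among the 4 sham libraries of the knockout genotype. The 7 remaining sham libraries, Sham_KO_3, Sham_KO_4 and Sham_WT_1 to Sham_WT_5, are what the pair was set against. The member just inside the threshold was Sham_KO_2 with 103 CPM of Atf3, and the highest sham library outside it had 16.8 CPM.

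Every library holds bulk RNA of lumbar dorsal root ganglia L4 to L6, and every library carries the label day 30. The pair belongs to the Sham_KO group of 4 libraries, labelled as knockout of Kcnk1 (Twik1) after a sham operation. The other groups used are CCI_KO, knockout mice with the constriction (3 libraries), CCI_WT, wild-type mice with the constriction (5 libraries), and Sham_WT, wild-type mice after a sham operation (5 libraries). No source used here gives the strain, the age, the deleted part of the gene, or whether a library is 1 animal or a pool. As no label states that replicate libraries come from separate animals, the p-values cover just the variation among these samples, which may be technical. Since Atf3 chose the pair, every difference between the pair and the other shams is given as a description with no test. The test used is CCI_WT against Sham_WT, which holds neither member, by edgeR's quasi-likelihood test with Benjamini-Hochberg adjustment over 23972 genes.

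The cell bodies of the sensory neurons that supply skin, muscle and viscera lie in the dorsal root ganglia, wrapped by satellite glia, with myelinating Schwann cells along their axons. Damage to a peripheral axon starts a transcriptional response in the cell body. The transcription factors Atf3, Jun and Sox11 are induced, growth genes such as Sprr1a and Gap43 follow, and neuropeptides such as Npy and Gal appear in neurons that normally make little of them. Neurotrophins and activity-dependent secreted proteins, among them Bdnf and Vgf, also respond in sensory neurons to inflammation, growth factors and neuronal activity. Alkal2 encodes a ligand of the receptor tyrosine kinase Alk.

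The upstream sequences of Atf3, Bdnf, Sprr1a and Alkal2 are shown because these genes were high together in the pair. They are RefSeq windows of 250 bases before a gene's start, from a table of build GRCm38.p6, placed on GRCm39 by exact match. That source held no window for Vgf. Capitals mark TGACG, the core of the cAMP response element, or TGANTCA, the AP-1 element, read on both strands. TGACG was in 17.8% and TGANTCA in 6.75% of all 32851 windows of that length in the table. A match is a description of letters and no evidence of binding. The Atf3 window is chr1:190915531-190915780, read on the minus strand and inside the annotated gene span, with 7 of its bases in annotated exons. Its TGACG match, on the strand opposite to the printed one, lies 7 bases before the start. The Bdnf window is chr2:109522531-109522780 on the plus strand, in no annotated exon but inside the gene's span, and is the 1 of 7 Bdnf windows that held TGACG. The Sprr1a window is chr3:92393189-92393438 on the minus strand, with 20 of its bases in annotated exons. It held the AP-1 element 146 and 116 bases before the start. The Alkal2 window lies within annotated exons, so only the 30-base stretches around its TGACG matches are shown, chr12:30934187-30934216 and chr12:30934262-30934291 on the plus strand.
Atf3: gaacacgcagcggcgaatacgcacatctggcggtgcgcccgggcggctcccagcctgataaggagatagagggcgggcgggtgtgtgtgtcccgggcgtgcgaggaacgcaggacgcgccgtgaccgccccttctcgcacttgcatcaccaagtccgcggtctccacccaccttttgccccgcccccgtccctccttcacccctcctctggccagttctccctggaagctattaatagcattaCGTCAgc
Bdnf: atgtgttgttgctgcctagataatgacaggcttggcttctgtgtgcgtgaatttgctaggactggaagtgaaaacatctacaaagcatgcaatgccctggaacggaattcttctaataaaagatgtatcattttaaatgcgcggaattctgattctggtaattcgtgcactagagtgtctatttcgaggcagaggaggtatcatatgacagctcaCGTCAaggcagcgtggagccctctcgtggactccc
Sprr1a: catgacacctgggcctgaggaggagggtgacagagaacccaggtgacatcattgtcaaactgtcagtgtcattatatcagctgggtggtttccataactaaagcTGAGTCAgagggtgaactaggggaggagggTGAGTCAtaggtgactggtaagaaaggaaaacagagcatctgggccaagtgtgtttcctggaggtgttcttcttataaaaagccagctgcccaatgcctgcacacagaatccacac
Alkal2 first stretch: ggcggaggggccTGACGaatatccgcgccc
Alkal2 second stretch: gggggacccgccTGACGtcggcggccgcgg

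The pair resembled the other libraries in depth and tissue markers. Counts in genes were 59.4 M (M, 1e6 reads) in Sham_KO_1 and 55.3 M in Sham_KO_2, within the 52.5 M to 73.6 M of all 17. Mitochondrially encoded genes held 0.575% and 0.531% of them. The sensory neuron marker Tubb3 was at 2399 and 2354 CPM in the pair and at 1825 to 2222 CPM in the other shams, and Avil, another sensory neuron marker, was at 946 and 972 CPM against 848 to 1053 CPM. On the first principal component of all libraries the pair scored -21.7 and -3.46, with CCI_WT between -48.0 and -15.9 and the other shams between 31.0 and 66.0. On the third component, with 8.33% of the variance, Sham_KO_1 scored -77.0 and Sham_KO_2 scored -44.5, and Sham_WT_2 lay between them at -57.7. The members were not copies of each other, with a chi-square of 14.8 per gene between their counts. That was still the lowest value among pairs within a group. The next was 15.4 for CCI_WT_1 and CCI_WT_2, and the other Sham_KO pairs had 49.4 to 66.4. A number in the deposited tables' names is the same for every sham, the pair included. It differs between CCI_WT and CCI_KO as well as from the shams. What it marks is not given, and it cannot be told apart from the injury.

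Kcnk1 (chr8:126721842-126757440, GRCm39), the potassium channel gene named by the knockout label, was counted at 77.9 and 75.1 CPM in the pair. It had 119, 108, 121, 106 and 118 CPM in the CCI_WT libraries. In the other shams it ran between 91.8 and 139 CPM with a median of 128, and the lowest value belonged to Sham_KO_3. Sham_KO_4 was at 114.5 CPM, inside the Sham_WT range. The CCI_KO libraries were at 78.3, 89 and 84.5 CPM, near the pair. The pair therefore had the lowest Kcnk1 counts of these shams, but a low count was shared with CCI_KO. Counts over the whole gene remained in every knockout library. As the deleted part is not given, a whole-gene count does not check the genotype.

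The axon injury genes were high in both members and lay between the sham and the day 30 injury levels for most of them. Atf3, a stress-induced transcription factor gene at chr1:190902493-190950241 (GRCm39), was at 141 and 103 CPM in the pair. It was at 209.5, 251, 108, 276 and 256 CPM in CCI_WT, and at 9.42 to 16.8 CPM with a median of 11.1 CPM in the other shams. Both members lay far above every other sham, and Sham_KO_1 lay inside the CCI_WT range, whose lowest library was CCI_WT_3. In CCI_KO, Atf3 was at 229.6, 93.8 and 175 CPM. These are bulk ganglia, in which a change in the number of cells of a type and a change in RNA per cell cannot be told apart.

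Sprr1a (chr3:92390424-92393208, GRCm39), which encodes a small proline-rich protein that promotes axon growth, reached 96.5 and 45.4 CPM in the pair. The CCI_WT libraries had 292, 371, 181, 334 and 344 CPM, and the other shams 0.0183 to 1.51 CPM with a median of 0.45 CPM. Npy, neuropeptide Y (chr6:49799026-49806489, GRCm39), was at 11.9 and 7.66 CPM in the pair, against 102, 118, 57.9, 90.1 and 129 CPM in CCI_WT and 0.0546 to 0.591 CPM in the other shams. For both genes the pair stood apart from the other shams and also below every CCI_WT library, so the 3 sets did not overlap. Cckbr, a receptor of cholecystokinin, had the same order, with 9.37 and 4.92 CPM in the pair, 17.4 to 48.2 CPM in CCI_WT and 0 to 0.762 CPM in the other shams. The serotonin transporter gene Slc6a4 did too, with 5.76 and 3.16 CPM in the pair, 5.91 to 13.9 CPM in CCI_WT and 0 to 0.96 CPM in the other shams. In the wild-type comparison Sprr1a rose by 9.90 ± 0.41 on the log2 scale (SE; edgeR adjusted p = 4.4e-06) and Npy by 8.72 ± 0.42 (SE; edgeR adjusted p = 8.33e-06).

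Some other injury genes had pair levels within the range of wild-type injury. Gal, the neuropeptide galanin, was at 247 and 212 CPM in the pair, 287, 389.8, 199, 261 and 288 CPM in CCI_WT, and 28.9 to 144 CPM in the other shams. Gadd45a, a stress-response gene, was at 39.3 and 38.6 CPM in the pair, 26.4 to 47.7 CPM in CCI_WT and 13.5 to 18.1 CPM in the other shams. Jun was at 148 and 138 CPM, with 103 to 158 CPM in CCI_WT and 69.4 to 83.8 CPM in the other shams. For these genes both members lay inside the CCI_WT range and above all other shams. Cacna2d1, the calcium channel subunit that binds gabapentin, was at 152 and 135 CPM in the pair, 103 to 165 CPM in CCI_WT and 78.6 to 92.1 CPM in the other shams. Npy1r, a receptor of neuropeptide Y, was at 45.2 and 47 CPM, with 33 to 51 CPM in CCI_WT and 12.2 to 24.1 CPM in the other shams. Sox11, Fst, an inhibitor of activins, and Csf1, the growth factor that injured sensory neurons send to microglia, lay above all other shams as well. Sox11 had 34.6 and 28.8 CPM in the pair, 26.2 to 47.6 CPM in CCI_WT and at most 11.2 CPM in the other shams. Fst had 28 and 19.7 CPM in the pair, 24.5 to 44.6 CPM in CCI_WT and at most 4.54 CPM in the other shams, so Sham_KO_2 lay below every CCI_WT library. Csf1 had 39.9 and 32.5 CPM in the pair, 31.6 to 56.5 CPM in CCI_WT and at most 31.9 CPM in the other shams, so its gap to the nearest sham was small.

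As a list, the axon injury genes had 23 of 38 tested members above all 7 other shams by at least 2-fold and none below. Across all tested genes 1.97% were above in that way, and Atf3 itself had chosen the libraries. With no limit on size, 33 of 38 lay above, beside 8.05% of all genes. The median difference of the list was 1.27 on the log2 scale for pair minus other shams and -0.01 over all tested genes. It was 1.34 for Sham_KO_1 and 1.24 for Sham_KO_2 taken alone. In CCI_WT against Sham_WT, 31 of the 38 rose by edgeR's quasi-likelihood test at an adjusted p under 0.05, where 3.28% of all genes rose, with a list median of 1.85. Among the list, 11 genes lay below every CCI_WT library in both members and 3 lay above every one, Adcyap1, Lifr and Hspb1, beside 13.2% and 12% of all genes. Klf6 and Smad1, transcription factors called higher in wild-type injury, were not above the shams: Smad1 had 83.7 and 80.4 CPM in the pair, 84.4 to 120.4 CPM in CCI_WT and 73.3 to 81.8 CPM in the other shams.

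**Figure D1:**
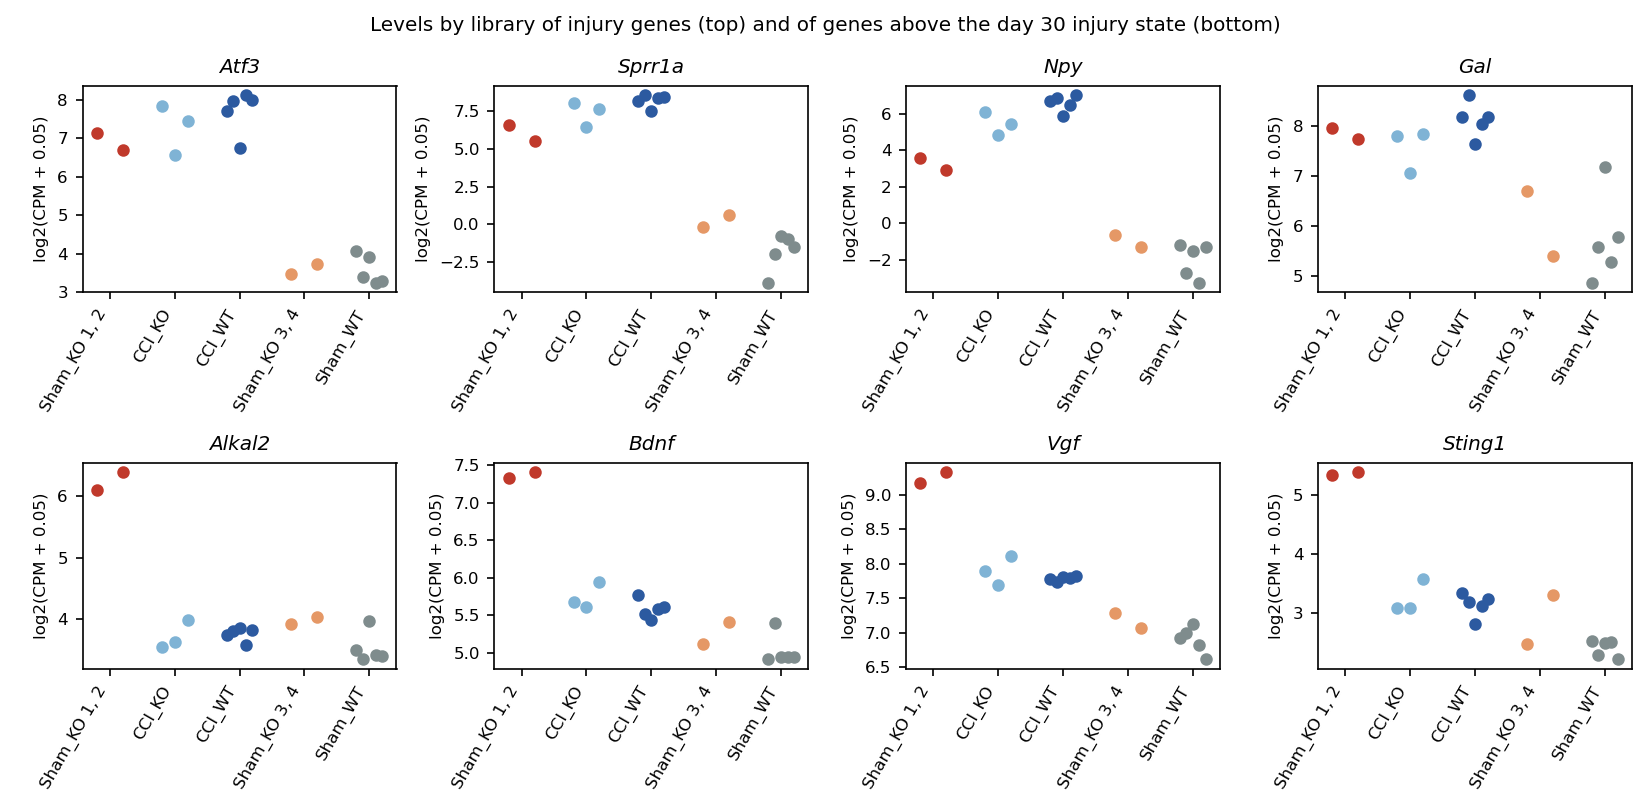
Points are single libraries on a log2(CPM + 0.05) scale for 8 genes, with Sham_KO_1 and Sham_KO_2 at the left, then CCI_KO, CCI_WT, Sham_KO_3 with Sham_KO_4, and Sham_WT. In the upper row the pair sits near or below the injured libraries, and in the lower row it sits above every other library, for example Bdnf at 161 and 170.3 CPM.

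A further set of genes was higher in the pair than in the other shams and also higher than in any wild-type injury library. Of the 23972 genes, 206 (0.859%) were above both sets in both members by at least 2-fold, and 71 of them were protein-coding genes at 1 CPM or more. Of these 71, 60 were not called in CCI_WT against Sham_WT and 11 were called. Bdnf, brain-derived neurotrophic factor (chr2:109505045-109557475, GRCm39), was at 161 and 170.3 CPM in the pair. It was at 54.7, 45.8, 43.3, 47.7 and 48.9 CPM in CCI_WT, and at 30 to 42.3 CPM with a median of 30.7 CPM in the other shams. The pair's mean was 4.86-fold the other shams' and 3.45-fold that of CCI_WT on the log2 CPM scale, and no library of either set came near it. Bdnf rose in wild-type injury by 0.55 ± 0.09 (log2, SE; edgeR adjusted p = 0.000777). In CCI_KO it was at 51.2, 48.7 and 61.2 CPM, so the high level was in neither injured group.

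Vgf (chr5:137055246-137062205, GRCm39), a neurosecretory protein precursor regulated by neurotrophins, was at 576 and 643 CPM in the pair. The CCI_WT libraries had 218, 213, 225, 222 and 227 CPM and the other shams 98 to 156 CPM with a median of 128 CPM. The means differed 4.83-fold from the other shams and 2.75-fold from CCI_WT, with no overlap, and wild-type injury raised Vgf by 0.88 ± 0.07 (log2, SE; edgeR adjusted p = 3.23e-07). Alkal2 (chr12:30933504-30944914, GRCm39) was at 68.3 and 83.4 CPM in the pair, against 13.4, 14, 14.6, 12 and 14.2 CPM in CCI_WT and 10.2 to 16.4 CPM with a median of 11.4 CPM in the other shams. The 12 libraries of both other sets overlapped with each other and lay below the pair, which was 5.53-fold CCI_WT and 5.96-fold the other shams. Alkal2 did not pass the wild-type test, with 0.22 ± 0.12 (log2, SE; edgeR adjusted p = 0.437), and had 11.7, 12.4 and 15.8 CPM in CCI_KO.

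Other genes of this kind are named after their values were seen, as the most abundant of the 71 or as genes of related function. Nptx1 and Nptx2, neuronal pentraxins that cluster glutamate receptors, were at 397 and 413 CPM and at 178 and 254 CPM in the pair. CCI_WT had 149 to 190 CPM of Nptx1 and 74.5 to 101 CPM of Nptx2, and the other shams 170.2 to 229 CPM and 75.9 to 108 CPM. Their receptor gene Nptxr was at 229 and 282 CPM in the pair, 108 to 129 CPM in CCI_WT and 111 to 142 CPM in the other shams. All 3 genes of the pentraxin system therefore stood about 2-fold above both sets, and none was called in wild-type injury. Etv5, a transcription factor downstream of fibroblast growth factor and neurotrophin signals, was at 296 and 305 CPM in the pair, 113 to 144 CPM in CCI_WT and 110.4 to 138 CPM in the other shams. Dusp6, a phosphatase gene induced by the same signals, was above both sets by less than 2-fold, at 38.6 and 44.4 CPM in the pair, with 23.6 to 33.3 CPM in CCI_WT and 26.4 to 32 CPM in the other shams. Ptgir, the prostacyclin receptor gene, was at 135 and 139 CPM in the pair, 47.5 to 70.4 CPM in CCI_WT and 46.7 to 73.9 CPM in the other shams. Timeless, which acts at replication forks, was at 86.8 and 83.7 CPM, with 30.5 to 34 CPM in CCI_WT and 25.4 to 38 CPM in the other shams.

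Sting1, the innate sensor of cyclic dinucleotides, was at 40 and 41.7 CPM in the pair. It was at 10.1, 9.11, 6.97, 8.61 and 9.43 CPM in CCI_WT and at 4.61 to 9.87 CPM with a median of 5.57 CPM in the other shams, the highest of which was Sham_KO_4. The pair was 4.64-fold CCI_WT and 7-fold the other shams, above every library of both. CCI_KO had 8.44, 8.44 and 11.9 CPM of Sting1, and it rose in wild-type injury by 0.74 ± 0.14 (log2, SE; edgeR adjusted p = 0.00229). Avpr1a, a vasopressin receptor gene, was at 12.4 and 8.5 CPM in the pair, 1.9 to 3.28 CPM in CCI_WT and 0.376 to 1.53 CPM in the other shams. Plaur, the urokinase receptor gene, was at 33 and 35.5 CPM in the pair, 12.8 to 19.9 CPM in CCI_WT and 8.71 to 17.1 CPM in the other shams. Pappa, which encodes a protease that frees insulin-like growth factors, was at 23.7 and 25.3 CPM, with 7.7 to 13.9 CPM in CCI_WT and 3.85 to 7.52 CPM in the other shams. For both genes the pair was above every library of both sets.

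Several cytokine pathway genes shared the pattern. Ccl2, a monocyte chemokine, was at 15 and 13.2 CPM in the pair, 3.03 to 5.78 CPM in CCI_WT and 2.37 to 7.17 CPM in the other shams. Socs3, a feedback inhibitor induced by STAT3, was at 29 and 22.2 CPM, with 9.92 to 13.9 CPM in CCI_WT and 4.69 to 13.1 CPM in the other shams. Il6 was low everywhere, at 1.52 and 1.05 CPM in the pair, 0.139 to 1.24 CPM in CCI_WT and 0 to 0.611 CPM in the other shams, so it overlapped CCI_WT but no other sham. Of the 22 cytokine and chemokine genes tested, 3 were above the other shams by at least 2-fold and none below, beside 1.97% and 1.49% of all genes, with a list median of 0.24.

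By the rule of the largest differences from both sets, the leading names were Vax2, Accsl, Alkal2, Grin2c, Loxl4, Glyat, Tph1 and H2-M11. Loxl4, a lysyl oxidase that cross-links collagen, was at 16.2 and 13 CPM in the pair, 1.67 to 3.74 CPM in CCI_WT and 2.36 to 4.29 CPM in the other shams. Glyat, a glycine acyltransferase gene, was at 9.76 and 8.25 CPM, with 1.19 to 2.14 CPM in CCI_WT and 0.768 to 2.81 CPM in the other shams. Accsl, related to plant 1-aminocyclopropane-1-carboxylate synthase, was at 6.1 and 5.88 CPM, with 0.14 to 0.744 CPM in CCI_WT and 0.0168 to 0.762 CPM in the other shams. Grin2c and Tph1 lay at or under 1.52 CPM in the pair. The reads of H2-M11, at 6.72 and 4.83 CPM, may be split with near-identical major histocompatibility genes, which makes its level uncertain. Vax2, a homeobox gene, was at 2.3 and 1.27 CPM in the pair and at 0.92, 1.79 and 0.482 CPM in CCI_KO, while CCI_WT reached 0.0371 CPM, Sham_KO_3 had 0.0762 CPM, and Sham_KO_4 and all Sham_WT libraries had 0. So reads over Vax2 were found above a trace in 5 of the 7 knockout-labelled libraries and in no wild-type one. The libraries carry no strand, so reads from a gene that overlaps Vax2 cannot be told from its own.

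The opposite set held genes that wild-type injury raised and for which the pair lay within the range of the other shams. Draxin, a secreted axon guidance protein gene, was at 0.627 and 0.441 CPM in the pair, 3.18, 7.33, 3.49, 6 and 4.74 CPM in CCI_WT, and 0.152 to 0.977 CPM in the other shams. The pair was below every CCI_WT library. Draxin rose in wild-type injury by 3.19 ± 0.27 (log2, SE; edgeR adjusted p = 1.49e-07). Loxl2, another lysyl oxidase gene, was at 0.762 and 1.32 CPM in the pair, 3.72 to 7.91 CPM in CCI_WT and 0.419 to 1.85 CPM in the other shams. Cyp24a1, the vitamin D 24-hydroxylase gene, was at 0.203 and 0 CPM in the pair, 0.82 to 1.69 CPM in CCI_WT and 0 to 0.297 CPM in the other shams. Aqp9, Car1, Igfn1 and the predicted gene Gm7361 met the same rule, with pair values up to 1.82 CPM. For Igfn1 the pair, at 0.813 and 0.404 CPM, was inside the range only through Sham_KO_3 at 4.88 CPM, with a sham median of 0.101 CPM, and the range of Car1 reached 13.4 CPM through Sham_KO_4.

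Macrophage genes belonged to this set in part. Of the 22 macrophage genes tested, 7 rose in CCI_WT against Sham_WT by edgeR's quasi-likelihood test, beside 3.28% of all genes, with a list median of 0.77, while for pair minus other shams the list median was -0.09, with 0.16 for Sham_KO_1 and -0.06 for Sham_KO_2 alone. In the pair 1 of the 22 was above the other shams by at least 2-fold, beside 1.97% of all genes, which at this list size is near the background. Csf1r, the receptor of macrophage colony-stimulating factor, was at 11.9 and 10.8 CPM in the pair, 27.3, 29, 13.5, 26.1 and 28.6 CPM in CCI_WT and 11 to 18.4 CPM in the other shams. Trem2, a lipid receptor of macrophages, was at 1.24 and 1.03 CPM, with 1.13 to 4.03 CPM in CCI_WT and 0.505 to 1.89 CPM in the other shams. Ms4a7 was at 2.78 and 1.8 CPM, with 2.74 to 7.83 CPM in CCI_WT and 0.883 to 2.75 CPM in the other shams. Of these 3 genes, only Trem2 had both members inside the sham range. Sham_KO_2 lay just under that range for Csf1r, and Sham_KO_1 just over it for Ms4a7. CCI_WT_3 was the lowest injured library for all 3 genes and overlapped the pair for Trem2 and Ms4a7. Lgals3, galectin-3, which axotomised neurons also express, was above all other shams in the pair, at 79.9 and 81.4 CPM against 29.4 to 62.7 CPM, with 76.9 to 166 CPM in CCI_WT.

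**Figure D2:**
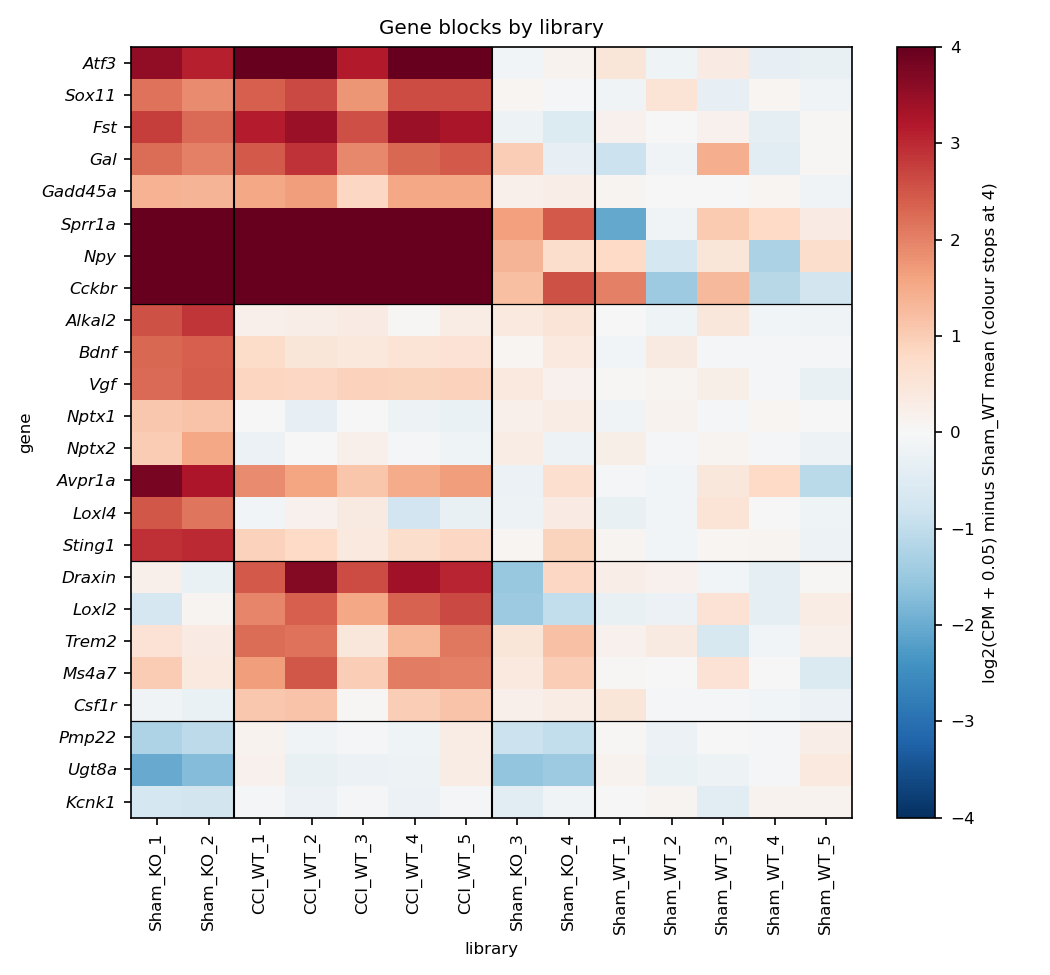
Each cell is a gene in 1 library, as log2(CPM + 0.05) minus the mean of the Sham_WT libraries, with the colour stopped at 4. The first block is high in the pair and in CCI_WT, the second in the pair more than in CCI_WT, the third in CCI_WT more than in the pair, and the last block holds myelin genes and Kcnk1, with Pmp22 at 2531 and 2849 CPM in the pair.

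To place the pair on the wild-type injury change with no shared library, the pair minus Sham_KO_3 and Sham_KO_4 was set against CCI_WT minus Sham_WT. Of the 786 genes that rose in wild-type injury, 621 (79.0%) were higher in the pair, beside 49.1% of all tested genes. Of the 308 that fell, 201 (65.3%) were lower in the pair, beside 50.7% of all tested genes, and 1.28% of all genes had fallen in wild-type injury. The median differences were 0.25 in the pair and 0.56 in wild-type injury for the genes that rose, and -0.10 in the pair and -0.33 in wild-type injury for those that fell. Across all 23972 genes the differences correlated weakly, with Pearson's r of 0.14 and Spearman's rho of 0.09, and across the 1094 called genes (4.56%) with r of 0.67 and rho of 0.54. These are correlations across genes of the same libraries, which are not independent replicates.

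**Figure D3:**
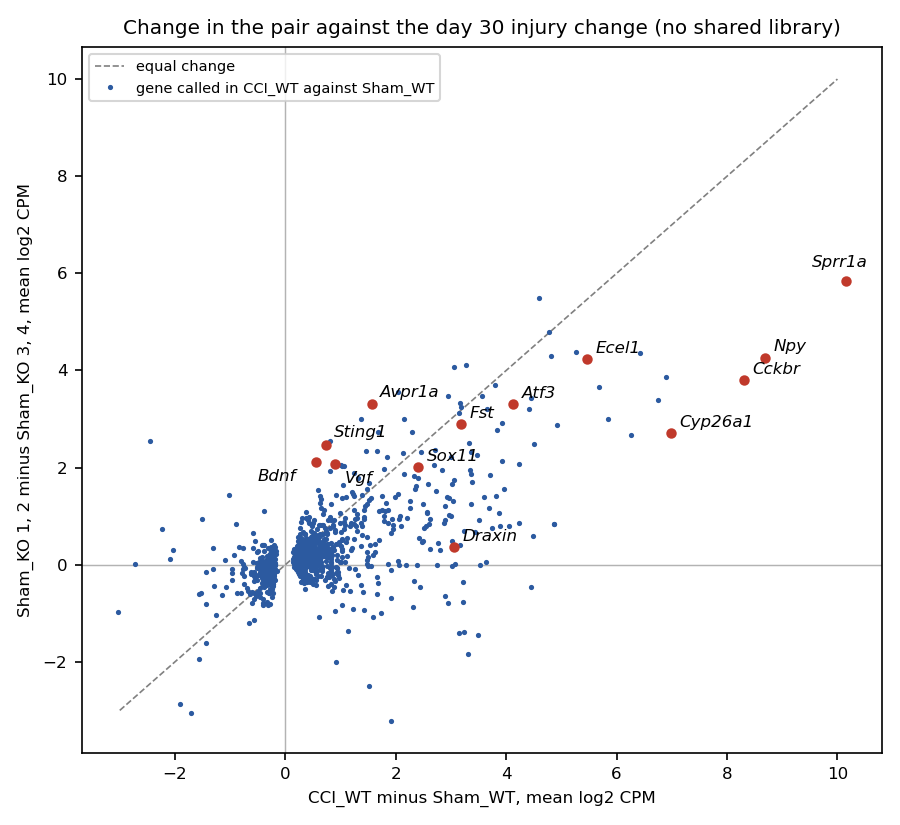
Points are the 1094 genes called in CCI_WT against Sham_WT, with that change in mean log2 CPM on the x axis and Sham_KO_1 and Sham_KO_2 minus Sham_KO_3 and Sham_KO_4 on the y axis. Sprr1a, Npy, Cckbr and Cyp26a1 lie to the right of the dashed line of equal change, Bdnf, Vgf, Sting1 and Avpr1a lie above it, and Draxin lies close to a y value of 0.

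Position along the injury change was then read for the 236 genes (0.984%) that rose at least 2-fold in CCI_WT, where 0 is the mean of Sham_KO_3 and Sham_KO_4 and 1 is a shift as large as that of wild-type injury. The median position was 0.57 in Sham_KO_1 (quartiles 0.20 and 0.86) and 0.39 in Sham_KO_2 (quartiles 0.04 and 0.75). The CCI_KO libraries, measured in the same way, had medians of 0.92, 0.50 and 0.75, so CCI_KO_3 lay between the 2 sham libraries of the pair. Taking the mean of the pair, 73 of the 236 genes (30.9%) were at or under 0.25, 103 (43.6%) between 0.25 and 0.75, and 60 (25.4%) above 0.75. The genes were thus spread along the axis, with some near or below the sham level and others near or past the injured level. A similar spread was found in the injured library CCI_KO_3, with quartiles of 0.24 and 0.76.

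**Figure D4:**
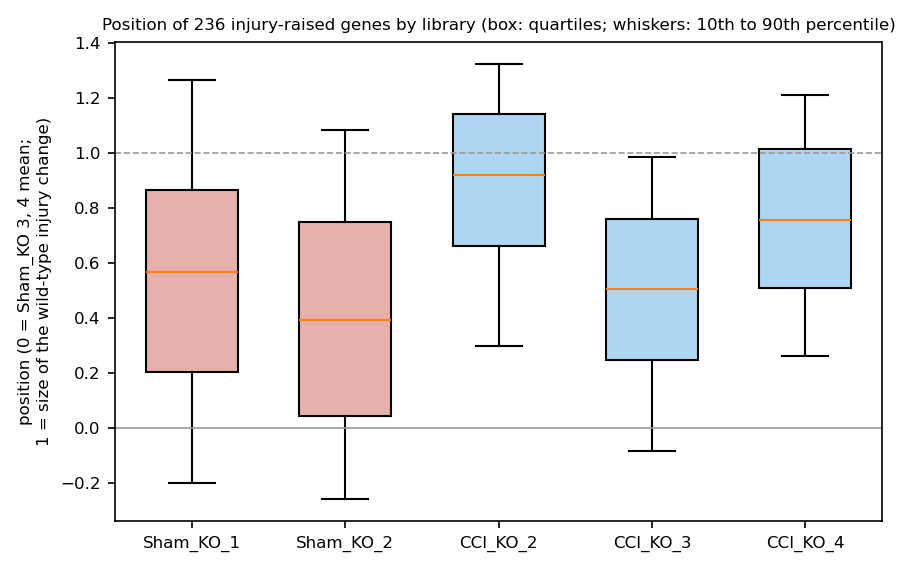
Boxes give the quartiles and the median over 236 genes of each library's position between Sham_KO_3 with Sham_KO_4 (0) and the size of the wild-type injury change (1), with whiskers at the percentiles named in the title. Sham_KO_1 and Sham_KO_2 have medians of 0.57 and 0.39, and the CCI_KO libraries 0.92, 0.50 and 0.75.

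Over all genes, 830 (3.46%) had both members outside the range of the other shams by at least 2-fold, 472 above and 358 below (1.49%). Both members lay inside that range for 13517 genes (56.4%). Against CCI_WT, 1491 genes (6.22%) were outside the range by at least 2-fold, 592 above (2.47%) and 899 below (3.75%). The largest differences upward from the other shams, by a rule on size, were Sprr1a, Vax2, Speer1c, Cckbr, Crh, Npy, Fgf3, Ecel1, Slc6a4, Accsl, Cyp26a1 and Nkx6-1. Most of these were near 0 in the shams. Crh, corticotropin-releasing hormone, was at 4.69 and 2.3 CPM in the pair, 1.11 to 3.75 CPM in CCI_WT and 0 to 0.238 CPM in the other shams. Ecel1, an endopeptidase gene induced in damaged neurons, was at 15.1 and 13.3 CPM, with 11.7 to 36.3 CPM in CCI_WT and 0.227 to 1.48 CPM in the other shams. Fgf3, a fibroblast growth factor gene, was at 4.86 and 3.14 CPM, with 4.55 to 15.4 CPM in CCI_WT and 0.0164 to 0.298 CPM in the other shams. Nkx6-1, a homeobox gene, was at 1.3 and 1.41 CPM, with 0.186 to 0.645 CPM in CCI_WT and 0 to 0.629 CPM in the other shams. CCI_KO had 0.427, 1.41 and 1.16 CPM of Nkx6-1, so its level in the pair was also found in injured knockout libraries. Reads of Speer1c may be shared with other members of its multigene family.

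The downward list held Bglap2, Ear6, Lrtm2, Mmp13, Chodl, Comp, Nuf2, Esco2, Qprt and Slc38a11, all under 3 CPM in the pair. Lrtm2, a leucine-rich repeat membrane protein gene, was at 0.203 and 0.459 CPM in the pair, 2.28 to 3.57 CPM in CCI_WT and 1.51 to 4.11 CPM in the other shams. Chodl, a C-type lectin gene, was at 0.305 and 0.606 CPM, with 2.83 to 3.57 CPM in CCI_WT and 0.824 to 4.78 CPM in the other shams. Comp, a cartilage matrix protein gene, was at 2.49 and 2.52 CPM, with 3.54 to 8.04 CPM in CCI_WT and 4.11 to 33.6 CPM in the other shams. For Lrtm2, Chodl and Comp the pair was below both sets, whereas for the bone gene Bglap2, at 0 in both members, the CCI_WT libraries were near 0 too, at 0 to 0.124 CPM. Bglap2 reads may be split with Bglap. Nuf2 and Esco2 are cell division genes, and the 14 cell cycle genes tested had a median of -0.86, which was -1.26 for Sham_KO_1 and -0.26 for Sham_KO_2 alone. Of these 14, 1 lay below the other shams at any size and none by 2-fold, beside 5.74% and 1.49% of all genes.

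Most myelinating Schwann cell genes were low in the pair. Pmp22, peripheral myelin protein 22, was at 2531 and 2849 CPM in the pair, 6482, 5372, 5637, 5213 and 7278 CPM in CCI_WT, and 2982 to 7111 CPM with a median of 5549 CPM in the other shams. Ugt8a, which makes the myelin lipid galactosylceramide, was at 32.8 and 39.6 CPM, with 109 to 163 CPM in CCI_WT and 44.2 to 173 CPM in the other shams. The pair was lowest for both genes, and next came the remaining knockout libraries. Pmp22 was at 3417, 2949 and 3026 CPM in CCI_KO and at 3287 and 2982 CPM in Sham_KO_3 and Sham_KO_4, against 5073 CPM in the lowest Sham_WT library. Of the 16 myelinating Schwann genes tested, 2 lay below the other shams by at least 2-fold, beside 1.49% of all genes, and 10 lay below with no limit on size, beside 5.74%. The list median was -0.78, and the summed level was 5789 and 6690 CPM in the pair, 12823 to 17229 CPM in CCI_WT and 7486 to 16344 CPM in the other shams. The part of myelinating cell content in the other differences of the pair was not tested. Repair Schwann genes had a median of 0.10, which was 0.28 for Sham_KO_1 and -0.03 for Sham_KO_2 alone, and satellite glia genes one of 0.02. Ngfr, the low-affinity neurotrophin receptor gene, which neurons and Schwann cells express, was at 464 and 526 CPM in the pair, 209 to 288 CPM in CCI_WT and 221 to 328 CPM in the other shams.

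Among neuron types, the neuropeptide genes of peptidergic nociceptors stood higher in the pair. Calca, which encodes the neuropeptide CGRP, was at 3829 and 4227 CPM in the pair, 1607 to 2334 CPM in CCI_WT and 1929 to 3335 CPM in the other shams. Tac1, which encodes substance P, was at 726 and 825 CPM, with 263 to 416 CPM in CCI_WT and 335 to 665 CPM in the other shams. Adcyap1, which encodes the neuropeptide PACAP, was at 236 and 219.6 CPM, with 109 to 125 CPM in CCI_WT and 72.7 to 146 CPM in the other shams. Both members were above all 12 libraries of the other sets for each of these neuropeptides. CCI_KO had 2405, 3385 and 2924 CPM of Calca, 451, 643 and 574 CPM of Tac1, and 142, 141 and 157 CPM of Adcyap1. For each gene the CCI_KO libraries lay below the pair but above every CCI_WT library. Of the 14 peptidergic genes tested, 4 lay above the other shams and none below with no limit on size, 1 of them by at least 2-fold, and 10 lay above every CCI_WT library. The shares over all genes were 8.05% above and 5.74% below the shams, 1.97% above by at least 2-fold and 12% above every CCI_WT library. The list median was 0.39 for pair minus other shams and -0.32 for CCI_WT minus Sham_WT.

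Itch receptor genes of non-peptidergic neurons went in part the same way. Il31ra, the interleukin 31 receptor gene, was at 48.6 and 40.2 CPM in the pair, 15.9 to 20.5 CPM in CCI_WT and 16.9 to 28.6 CPM in the other shams. Nppb, the itch neuropeptide gene, was at 25.6 and 21.5 CPM, with 9.32 to 13.5 CPM in CCI_WT and 12 to 16 CPM in the other shams. Osmr, the oncostatin M receptor gene, was at 59.6 and 61.7 CPM, with 35.7 to 40.6 CPM in CCI_WT and 33.3 to 47.5 CPM in the other shams. Mrgprd, a receptor gene of another non-peptidergic class, was on the other side, at 213 and 221 CPM in the pair, 250.5 to 298 CPM in CCI_WT and 248 to 343 CPM in the other shams. In CCI_KO, Mrgprd was at 244, 247 and 215 CPM, below every CCI_WT library, and CCI_KO_4 lay between the members. In total 6 of the 18 genes of this list lay above the other shams and 3 below, with a median of 0.13. Large myelinated neuron genes had 3 of 15 below and none above, with a median of -0.27. Beside these stand the 8.05% above and 5.74% below of all genes. Pvalb, parvalbumin of proprioceptors, was at 61.1 and 61.5 CPM, with 71.4 to 108 CPM in CCI_WT and 69.9 to 123 CPM in the other shams, and Necab2, a calcium-binding protein gene, was at 18.4 and 17.9 CPM, with 21.5 to 30.1 CPM in CCI_WT and 26.4 to 32.6 CPM in the other shams.

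Ion channel lists had medians near that of all genes. Of the 29 potassium channel genes tested, 6 lay above the other shams and 3 below, beside 8.05% and 5.74% of all genes, with a median of 0.02, and 1 of the 6 by at least 2-fold, beside 1.97%. That gene was Kcnk16, a two-pore channel gene, at 0.982 and 0.643 CPM in the pair, 1.84 to 4.84 CPM in CCI_WT and 0 to 0.118 CPM in the other shams. Kcnk10, another of that family, was at 18.5 and 21.7 CPM, with 11 to 18.4 CPM in CCI_WT and 10.7 to 13.2 CPM in the other shams. In wild-type injury 8 potassium channel genes fell and 1 rose by edgeR's quasi-likelihood test, beside 1.28% and 3.28% of all genes, and 15 of the 29 were above every CCI_WT library in the pair, beside 12% of all genes. Of the 24 sodium and calcium channel genes, 6 lay above the other shams and none below, with a median of 0.01, again beside 8.05% and 5.74% of all genes. Scn10a, the sodium channel of nociceptors, was at 705 and 755 CPM, with 477 to 589 CPM in CCI_WT and 561 to 686 CPM in the other shams. Among 20 opioid and GABA receptor genes, 7 lay above, 3 of them by at least 2-fold, and 2 below, beside 8.05%, 1.97% and 5.74% of all genes. Gabra5, a GABA-A receptor subunit gene, was at 17.2 and 20.7 CPM, with 7.69 to 10.1 CPM in CCI_WT and 4.74 to 8.08 CPM in the other shams. Oprm1, the mu opioid receptor gene, was at 5.62 and 3.89 CPM, with 1.38 to 2.5 CPM in CCI_WT and 1.69 to 3.27 CPM in the other shams.

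The secreted neuronal list to which Bdnf and Vgf belong had 6 of 17 genes above the other shams by at least 2-fold and 1 below, beside 1.97% and 1.49% of all genes, with a median of 0.57, and 10 of 17 above every CCI_WT library, beside 12%. Of 19 immediate early genes tested, none was outside the shams by 2-fold. With no limit on size 4 lay above and 5 below, beside 8.05% and 5.74% of all genes, and the median was -0.18. Fos was at 12.9 and 16.2 CPM in the pair, 12.7 to 28.6 CPM in CCI_WT and 10 to 22.9 CPM in the other shams, and Egr1 at 18.9 and 21.7 CPM, with 15.9 to 60 CPM in CCI_WT and 17.4 to 52.9 CPM in the other shams. For both genes the pair lay inside the range of the other shams. Dusp1, a stress-induced phosphatase gene, was lowest in the pair, at 36.4 and 37.7 CPM, with 51.6 to 87.1 CPM in CCI_WT and 42.5 to 60.9 CPM in the other shams. Fosl2 was higher, at 7.05 and 12 CPM, with 7.94 to 11.4 CPM in CCI_WT and 3.71 to 5.93 CPM in the other shams.

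Protein folding genes were slightly higher in the pair. Of the 10 heat shock genes tested, 9 lay above all other shams with no limit on size and none by 2-fold, with a median of 0.30, and all 10 lay above every CCI_WT library, beside 8.05% and 12% of all genes. Hsph1, a chaperone gene, was at 360.0 and 363 CPM in the pair, 237 to 268 CPM in CCI_WT and 249 to 300.1 CPM in the other shams. Hspa1b, at 22.3 and 30.8 CPM against 13.2 to 17 CPM in CCI_WT and 12.9 to 18 CPM in the other shams, shares reads with its near-identical copy Hspa1a. Of the 13 endoplasmic reticulum stress genes, 7 lay above the other shams and none below, beside 8.05% and 5.74% of all genes, with a median of 0.27. Atf4, a translation-controlled stress factor gene, was at 115 and 117 CPM, with 84.2 to 103 CPM in CCI_WT and 75.1 to 91.2 CPM in the other shams. Trib3, one of its targets, was at 8.71 and 9.77 CPM, with 4.55 to 8.82 CPM in CCI_WT and 3.19 to 7.52 CPM in the other shams.

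Clock genes gave a mixed order. Dbp, a clock output gene, was at 16 and 16.5 CPM in the pair, 8.38, 9.05, 10.3, 10.3 and 9.62 CPM in CCI_WT and 22.8 to 32 CPM in the other shams, so the pair lay between both sets. Nr1d1, a clock repressor gene, was at 26.8 and 28.3 CPM, with 17.3 to 23.4 CPM in CCI_WT and 32.7 to 49.2 CPM in the other shams, again between them. Bmal1, the activator of the clock, was at 2.32 and 3.77 CPM in the pair and 1.85 to 4.3 CPM in the other shams, with 6.6 to 11 CPM in CCI_WT. Of the 15 clock genes tested 5 lay below the other shams and 1 above, beside 5.74% and 8.05% of all genes. In wild-type injury 6 fell and 1 rose by edgeR's quasi-likelihood test, beside 1.28% and 3.28% of all genes. No source used here gives the time of day of tissue collection, and its part was not tested.

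**Figure D5:**
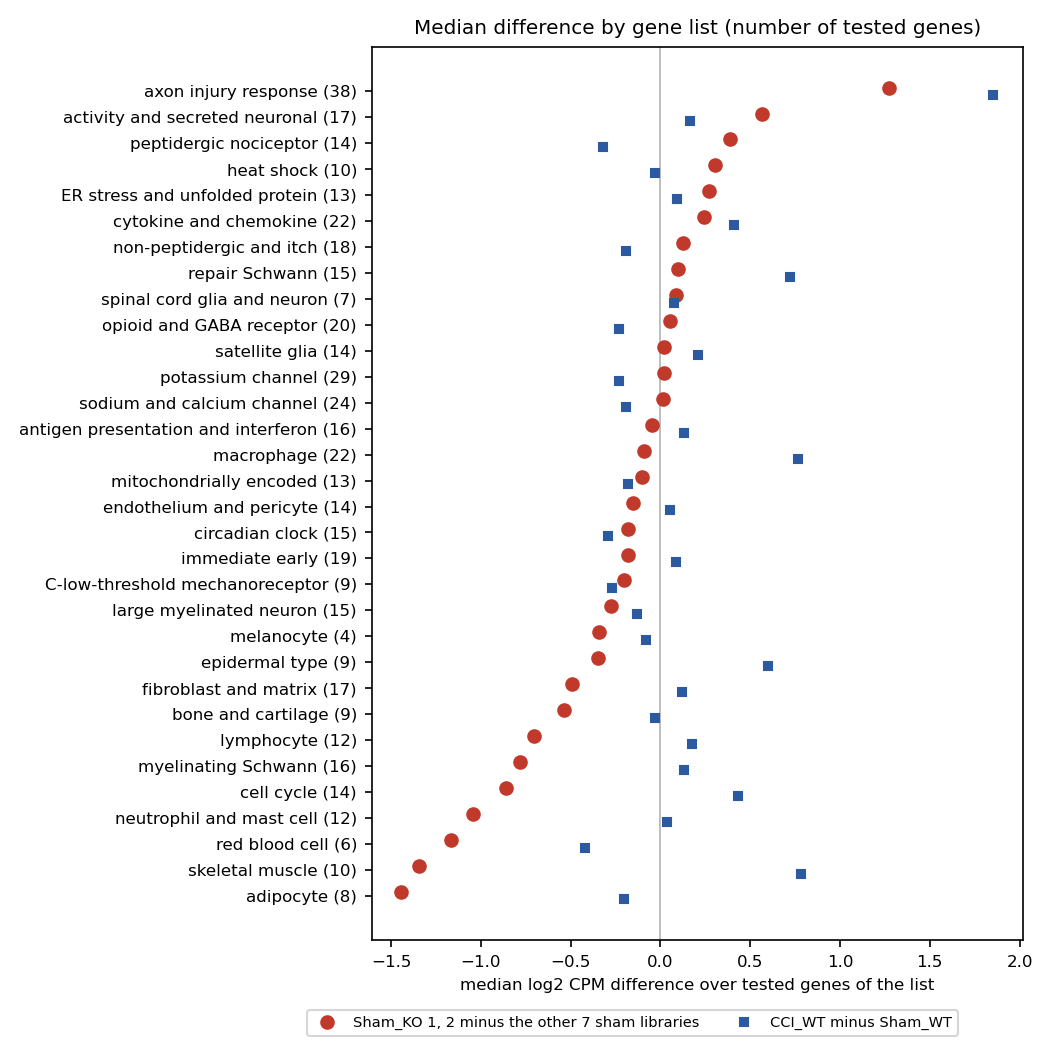
Circles give the median log2 CPM difference of Sham_KO_1 and Sham_KO_2 minus the other 7 shams, and squares that of CCI_WT minus Sham_WT, for each of 32 gene lists with the number of tested genes in brackets. The axon injury list is highest on both, at 1.27 and 1.85, while the macrophage list has -0.09 in the pair and 0.77 in wild-type injury.

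Among markers of cells outside the nervous tissue, fibroblast and matrix genes had a median of -0.49, with 12 of 17 below every CCI_WT library, beside 13.2% of all genes. Against the other shams 1 of the 17 lay above and 1 below, both by at least 2-fold, beside 1.97% and 1.49% of all genes. At this list size that is near the background. The gene above was Timp1, a metalloproteinase inhibitor gene, at 10.3 and 10.2 CPM in the pair, 3.17 to 6.72 CPM in CCI_WT and 0.376 to 3.58 CPM in the other shams. The gene below was Col1a2, a collagen chain gene, at 72.6 and 86.1 CPM in the pair, 201 to 342 CPM in CCI_WT and 99.9 to 294 CPM in the other shams. In CCI_KO, Col1a2 was at 101, 83.8 and 113 CPM, so CCI_KO_3 lay between the members and the low level was not particular to the pair. Postn, periostin, stayed at 39.2 and 38.5 CPM, with 54.4 to 103 CPM in CCI_WT and 26.4 to 44.6 CPM in the other shams. Neutrophil and mast cell genes summed to 114 and 188 CPM in the pair, 129 to 242 CPM in CCI_WT and 107 to 1003 CPM in the other shams, the highest being Sham_KO_4. The list medians were -1.05 for neutrophil and mast cell, -1.44 for adipocyte, -1.35 for skeletal muscle, -1.17 for red blood cell and -0.70 for lymphocyte genes. The members differed in several of these. In Sham_KO_1 and Sham_KO_2 taken alone, the neutrophil and mast cell median was -2.09 and -0.05, the adipocyte median -2.03 and -0.89, the red blood cell median -1.84 and -0.49, and the lymphocyte median -0.36 and -0.69. Sham_KO_3 was the highest other sham for skeletal muscle, with a sum of 1100 CPM, and Sham_KO_4 for red blood cell genes, with 1839 CPM, so adjacent tissue and blood differed among the libraries the pair was set against. The part of these cells in the results was not tested.

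The members also differed from each other. Of the 38 axon injury genes, 35 were higher in Sham_KO_1, as were 164 of the 236 genes most raised by wild-type injury, with 66 higher in Sham_KO_2. Sprr1a at 96.5 and 45.4 CPM, Nts, the neuropeptide neurotensin, at 126 and 65.9 CPM, and Gpr151, an orphan receptor gene of injured neurons, at 31.7 and 14.2 CPM in Sham_KO_1 and Sham_KO_2 show the size of the gap. Of the 17 secreted neuronal genes, 14 were higher in Sham_KO_2, as were 12 of 13 endoplasmic reticulum stress genes and 15 of 16 myelinating Schwann genes. The 71 genes above both other sets were evenly divided, with 33 higher in Sham_KO_1 and 38 in Sham_KO_2. Bdnf, Vgf and Alkal2 were higher in Sham_KO_2, Bdnf by little, at 170.3 against 161 CPM. The counts in this paragraph set 1 library against 1 other, and no share over all genes was counted beside them.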

How the data were processed

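Total RNA of mouse lumbar ganglia L4 to L6 was prepared with PicoPure columns, and its cDNA was made with SMART-Seq v4 (Ultra Low Input), per the labels' protocols. That kit does not mark strand, so overlapping and antisense genes cannot be separated, and paralogs may share reads. The authors deposited raw read counts per Ensembl gene, 1 table per library. The submitters' processing notes name bcl2fastq 2.20.0.422, STAR 2.7.11a and GRCm39. The read counter, its version and its annotation are not stated there. The 5 summary lines that end each table were left out of totals (reads in no feature were 4.03% and 4.04% in the pair). Gene symbols came from a GRCm39 annotation that held 78168 of the 78298 IDs.

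Genes with at least 10 counts in enough libraries and 15 in all were kept (edgeR's filterByExpr over the 4 labelled groups), 23972 of 46200 with any count. Levels are CPM with TMM factors from all libraries, and differences are means of log2 CPM with a prior count of 2. CCI_WT and Sham_WT (10 libraries) were compared by edgeR 4.0.16's robust quasi-likelihood test, with an adjusted p under 0.05 as a call (biological coefficient of variation 0.318, 8 residual degrees of freedom). A gene was above or below a set of libraries when both members lay beyond all of them, and at least 2-fold when the mean log2 CPM difference was 1 or more.

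The members and the gene lists were chosen with earlier results of these data known. Genes were named by these rules: the 12 largest upward and 10 largest downward differences from the other shams, the 8 largest excesses over CCI_WT, the 8 largest injury rises within the sham range, 9 set genes and up to 4 of each of 32 lists. Of the rest, Sting1, Avpr1a, Etv5, Nptxr, Ptgir, Timeless, Plaur, Pappa, Trem2, Ms4a7 and further list genes were chosen after their values were seen. A few genes that these rules name are not reported here. Alternatives were DESeq2 1.42.0 (Wald test and size factors), other count filters, prior counts and baselines, a replicate block and leaving out libraries.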

Additional observations from a re-analysis of the deposited data

Results flagged for a closer look

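Groups of 4 or 5 libraries were searched for a highest or lowest library whose gap to its nearest neighbour, as a share of the group's range, exceeded Dixon's critical value. Over 384 groups of 128 genes 26 were found, and chance gives about 1 in 20.

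In Sham_KO, Sham_KO_1 stood out for Cyp24a1, with 0.203 CPM and a gap of 1 of the range, the other 3 libraries being at 0. Sham_KO_4 was low for Lifr (377 CPM, gap 0.92) and high for Bglap2 (10.8 CPM, gap 0.922) and Mmp13 (6.42 CPM, gap 0.912), and Sham_KO_3 was low for Postn (26.4 CPM, gap 0.956). Bglap2 and Mmp13 are among the lowest genes of the pair relative to the other shams, and the mean of those shams rests partly on such libraries.

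In CCI_WT, CCI_WT_3 was the low library for 12 of 13 genes found. The neuronal injury genes were Sox11 (gap 0.72), Gap43 (0.862), Gadd45a (0.849), Cckbr (0.757), Nts (0.767), Flrt3 (0.788), Cacna2d1 (0.773), Itga7 (0.792) and Tubb6 (0.857). The others were Csf1r (0.861), Cxcl14 (0.792) and Esco2 (0.894). For Gap43 it had 493 CPM and for Sox11 26.2 CPM, below the pair in both. CCI_WT_4 was high for Kcnk16 (4.84 CPM, gap 0.761).

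In Sham_WT, Sham_WT_1 was high for Csf1 (31.9 CPM, gap 0.864) and Csf1r (18.4 CPM, gap 0.73), and Sham_WT_2 for Bdnf (42.1 CPM, gap 0.931). Sham_WT_3 was high for Alkal2 (15.7 CPM, gap 0.75) and low for Accsl (0.0168 CPM, gap 0.859), Kcnk1 (94.3 CPM, gap 0.782) and Chodl (0.824 CPM, gap 0.773). Sham_WT_5 was high for Mmp13 (10.1 CPM, gap 0.757). The high shams for Bdnf and Alkal2 remained far below the pair, at 161 and 170.3 CPM of Bdnf and 68.3 and 83.4 CPM of Alkal2.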

How the results depend on the processing

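The 1094 genes called in CCI_WT against Sham_WT were 1079 with DESeq2 size factors, 1530 without a count filter, 1102 with at least 1 CPM in at least 5 libraries, 1521 by DESeq2's Wald test, 733 with all 17 libraries in the fit and 1115 with the replicate number as a block. Leaving out 1 library gave 653 (without CCI_WT_5) to 1419 (without CCI_WT_3), with 724 without CCI_WT_1 and 680 without CCI_WT_4, and the fewer samples lower the power of each. The deviations of same-numbered CCI_WT and Sham_WT libraries correlated between -0.006 and 0.071, and 2 of 5 correlated best with their own number. Such low correlations cannot show whether same-numbered libraries were paired in some way.

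The 830 genes apart from the other shams became 1263 without a count filter, 310 with the strict filter and 1323 at 1.5-fold. Against Sham_KO_3 and Sham_KO_4 alone they were 2621, of which 45.9% were higher, beside 56.9% against all 7. Leaving out 1 library gave 928 to 2447, with 1944 without Sham_KO_1 and 2447 without Sham_KO_2, since 1 member then decides. The 1491 genes apart from CCI_WT became 2430, 524 and 2458 under the same filters and fold, and 1644 to 3414 with 1 library left out, with 3037 without Sham_KO_1 and 3414 without Sham_KO_2. The share of called genes with the sign of wild-type injury, 75.1%, was 72.3% without a filter and 68.5% (without Sham_KO_3) to 81.3% (without CCI_WT_5) with 1 library left out. The median position ran from 0.39 to 0.57 with 1 library left out and was 0.54 with Sham_WT as the zero, and the axon injury list's median difference from 1.24 to 1.34. Of 1908 alternative values for 128 named genes, 1866 stayed within the gene's pooled standard deviation and 42 moved further. That deviation pools the spread within the pair with the spread among the 7 other shams. Those shams are of both genotypes, so it is wider than a spread between replicates may be. The sign changed in 28 values, all of genes not apart from the shams, and in 0 for the 105 genes apart. For those 105, both members lay beyond every sham. Leaving out a library or changing the sham baseline therefore could not change their sign.

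The pair is 2 libraries picked by 1 gene's level, so genes that vary with Atf3 between libraries had to differ. With 2 values, no separate spread of the pair is given. Low genes rest on few reads: values near 0.0183 CPM are close to 1 read in a library. Whole-gene counts show no isoform.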
